A study of Mus musculus with 16 samples.

Results

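Ribosome-bound RNA of GLAST-Cre+ cells was compared with the RNA of the whole cochlear homogenate in undamaged cochleae at P4, with 4 control IP and 4 control input libraries, 8 of the 16 libraries of the series. The libraries were taken by their titles and sample type labels, and the comparison was chosen with earlier results of these data known. Control mice were GLAST CreERT/+; Rpl22 HA/+, carrying a tamoxifen-inducible Cre known as Slc1a3-CreERT (Slc1a3 encodes GLAST) and heterozygous for the RiboTag allele of Rpl22. DTR mice, the source of the other 8 libraries, carried Lgr5 DTR/+ in addition, so both groups shared the Cre and RiboTag alleles. The study's methods state that both received diphtheria toxin (DT) and tamoxifen at P1, while the sample labels give no treatment for the controls. Each replicate was a pool of cochleae from several mice, dissected free of the lateral wall, of Reissner's membrane and of the spiral ganglia. The input was 5% of the homogenate, and the other 95% went into the immunoprecipitation (IP) with an antibody to HA, so IP and input libraries of the same number come from 1 pool.

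In RiboTag mice, Cre swaps the last exon of Rpl22 for a copy that carries an HA tag, and the tag lets ribosomes of the recombined cells be pulled out of a mixed lysate with the mRNAs bound to them. GLAST is a glutamate transporter of glia and of glia-like cells. In the neonatal cochlea, GLAST-Cre marks the inner phalangeal cells, which surround the inner hair cells, and the greater epithelial ridge (GER), a transient epithelium next to the organ of Corti that secretes much of the tectorial membrane. The input holds these cells together with all others of the dissected tissue.

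Reads counted on genes ranged from 35517482 to 41966310 in the input libraries and from 30586938 to 34362992 in the IP libraries, and 3 reads, taken as the smallest detectable level, corresponded to 0.0715 to 0.0981 CPM (the reads of a gene scaled to the total on genes in its library). That level covers counting error only. Between 24038 and 25245 genes had at least 1 read in a control library. The share of reads from the 10 highest genes was 5.19% to 6.87% in input and 6.70% to 9.13% in IP, lincRNAs took 0.239% to 0.337% in input and 0.490% to 0.785% in IP, and mitochondrial rRNA and tRNA genes took 0.114% to 0.220% in input and 0.00632% to 0.0269% in IP. IP replicate 4 lay at the end of the IP range in each of these measures. It had the fewest reads and detected genes and the highest share of the 10 highest genes. Its shares of lincRNAs and of mitochondrial rRNA and tRNA genes were the lowest. What these differences in makeup contribute to single genes was not tested.

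More than 1 in 10 of the tested genes differed in each direction. Of 16994 tested genes, 2026 (11.9%) were higher and 2120 (12.5%) were lower in control IP, by more than 1.5-fold with an adjusted p under 0.05 and no overlap between the 4 IP and the 4 input libraries. Taking a difference of 2 or more on the log2 scale (LFC, log2 fold change), with a mean over the control libraries above the median of the tested genes (22.5 CPM), 91 genes (0.535%) were highly enriched in IP, of which 89 are protein coding, and 45 genes (0.265%) were strongly lower at an LFC of -2 or below. LFC were estimated with limma on log2 of quantile-normalized CPM plus 0.5, with the pool as a block, whereas CPM are given as deposited. The median LFC over all tested genes was 0.00, with a range from -5.45 to 4.21. Of 383 tested lincRNAs 71 were higher and 11 lower, and of 393 antisense genes 51 were higher and 8 lower, against 1752 higher and 2014 lower of 14494 protein-coding genes. Pseudogenes did not share this direction, with 39 higher and 51 lower of 804 processed pseudogenes and 1 higher and 6 lower of 31 unprocessed ones. Whether the counting used strand is not stated, so reads of an antisense gene and of its sense partner cannot be told apart.

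**Figure D1:**
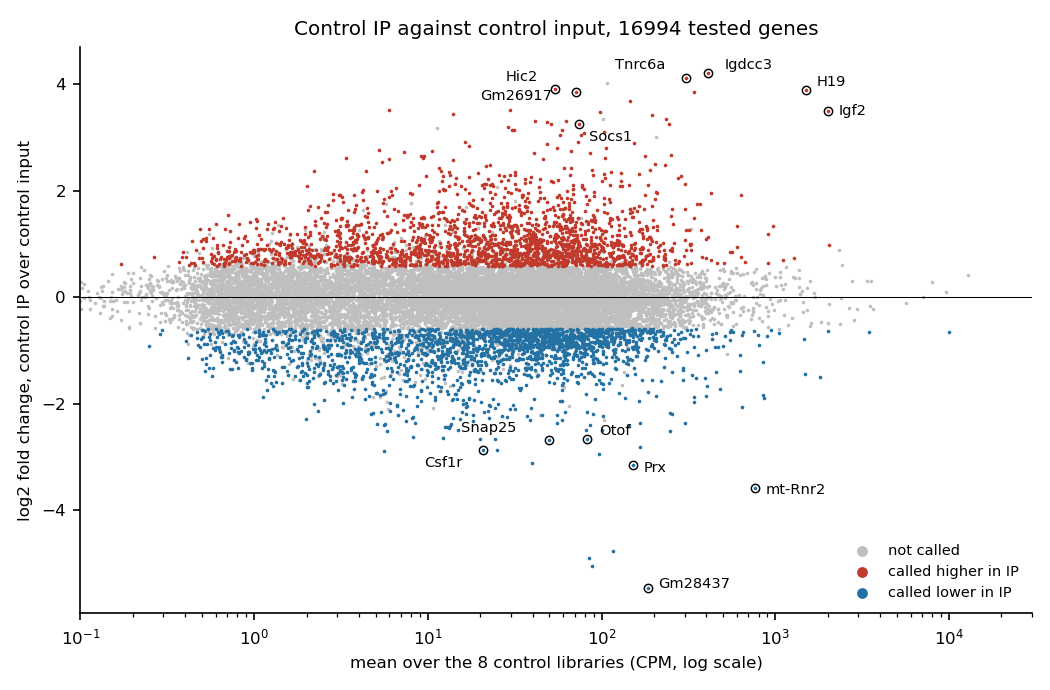
LFC of control IP over control input (y axis, log2) against the mean over the 8 control libraries (x axis, CPM, log scale) for the 16994 tested genes. Red points are the 2026 genes called higher, blue points the 2120 called lower and grey points the rest, and open circles mark named genes, from Igdcc3 at the top (LFC 4.21) to the chromosome 1 pseudogene Gm28437 at the bottom (LFC -5.45).

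Igdcc3, Tnrc6a, Hic2 and H19 led the genes called higher in IP, with differences of 18.6-, 17.4-, 14.9- and 14.8-fold. Igdcc3, a membrane protein of the immunoglobulin superfamily (chr9:65141189-65185872, GRCm38), was at 32.6, 43.7, 50.3 and 42.7 CPM in the 4 input libraries and at 829, 862, 769.9 and 639 CPM in the IP libraries of the same pools. The groups were far apart (LFC 4.21 ± 0.14 (SE), adjusted p = 9.77e-11). Tnrc6a and Tnrc6b encode GW182 proteins, the scaffolds through which Argonaute proteins silence microRNA targets. Tnrc6a (chr7:123123885-123195296) was at 28.8, 39.5, 32.9 and 27.9 CPM in input and 658, 703, 572 and 379.9 CPM in IP (LFC 4.12 ± 0.15 (SE), adjusted p = 9.77e-11). Tnrc6b (chr15:80711313-80941085) was at 44.1, 45.5, 44.9 and 38.3 CPM in input and 715, 732, 659 and 436 CPM in IP (LFC 3.86). In both genes the lowest IP library, replicate 4, lay several-fold above the highest input library. Hic2, a transcriptional repressor (chr16:17233572-17263430), was at 6.67, 5.52, 6.14 and 6.8 CPM in input and 128, 121, 96.2 and 62.7 CPM in IP (LFC 3.90 ± 0.19 (SE), adjusted p = 1.06e-09).

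The imprinted neighbours H19 and Igf2 on chromosome 7 were both among the 10 called genes with the largest LFC at a mean above the median level. H19, a long noncoding RNA that also gives rise to a microRNA (chr7:142575529-142578143), was at 174, 205, 173 and 183 CPM in input and 3756, 2928, 2394 and 2154 CPM in IP (LFC 3.89 ± 0.13 (SE), adjusted p = 9.77e-11). Igf2, a fetal growth factor (chr7:142650766-142666816), was at 309, 339.9, 337 and 319 CPM in input and 4386, 3762, 3479 and 3149 CPM in IP (LFC 3.49 ± 0.12 (SE), adjusted p = 9.77e-11). The groups were far apart for both, and replicate 1 was the highest and replicate 4 the lowest of the IP libraries. The same 10 genes also hold Lmbr1l, a membrane receptor for lipocalins (LFC 3.67), Rhebl1, a small GTPase close to Rheb (LFC 3.51), Fign, which severs microtubules (LFC 3.48), and Gm26917 (LFC 3.85), a lincRNA in the annotation that lies over a repeat of the ribosomal RNA precursor, so its reads cannot be assigned to the lincRNA. Replicate 4 was the lowest IP library for each of these 4 genes, at 213, 39, 104 and 68 CPM in that order, and still above the highest input library (22.4, 4.42, 16.7 and 14.8 CPM).

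**Figure D2:**
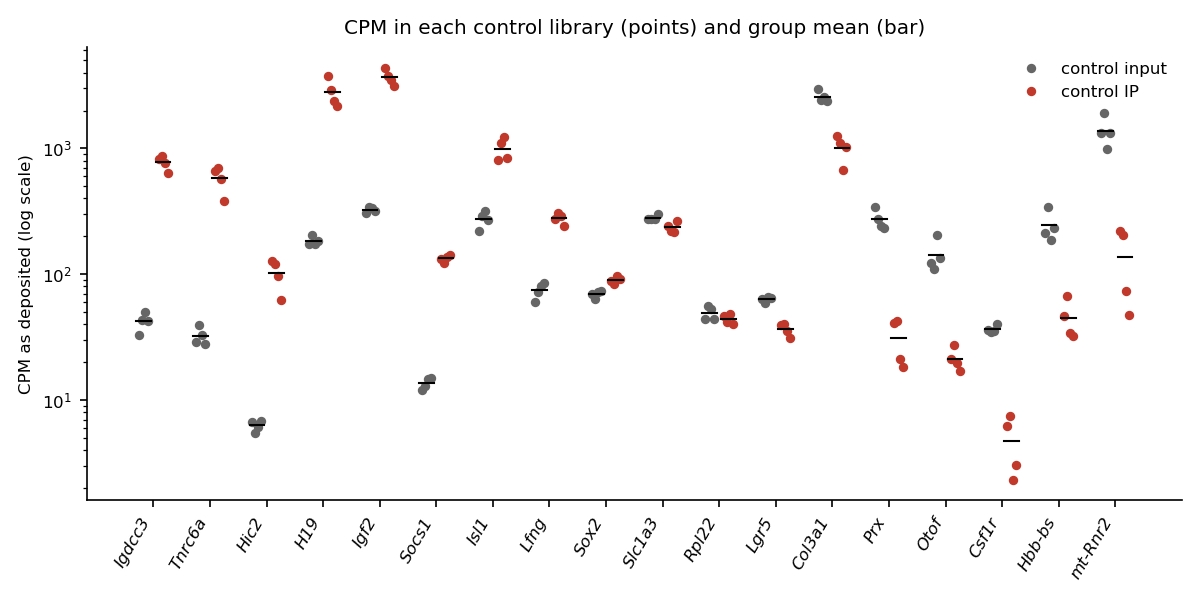
Deposited CPM (y axis, log scale) of 18 named genes in the 4 control input (grey) and 4 control IP (red) libraries. Each point is 1 library and each bar the group mean. The groups are apart for every gene shown but Rpl22, for which they overlap, and they are apart by little for Sox2 and Slc1a3.

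Most members of a list of let-7 targets and oncofetal genes were higher in IP. The list was chosen with earlier results of these data known, so its counts are a description and not a test. let-7 is a family of microRNAs that accumulates as tissues differentiate and silences genes of early development, and a microRNA finds its targets mainly through its seed, bases 2 to 8, which pairs with a site in the 3' UTR. Of 22 tested members of the list, 17 were higher and 1 was lower in IP (11.9% and 12.5% of all tested genes), and 7 were among the 91 highly enriched genes. Their median LFC was 1.71 against 0.00 over all tested genes, and it ranged from 1.55 to 1.80 over the 4 pools.

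The mature sequences whose seeds were searched for are shown because the next results count their sites. They come from RefSeq (GRCm38.p6), where 7 of the 8 microRNAs looked up were matched and miR-124-3p was not. Capitals mark the seed.
let-7a-5p: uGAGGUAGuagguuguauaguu
miR-9-5p: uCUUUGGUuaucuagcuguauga
miR-183-5p: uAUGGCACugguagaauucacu
miR-200b-3p: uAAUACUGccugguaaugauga
miR-29a-3p: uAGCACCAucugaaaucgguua
miR-30a-5p: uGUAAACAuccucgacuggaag
miR-16-5p: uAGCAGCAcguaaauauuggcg
The 7 seeds differ from each other. The let-7a seed is shared by 11 mature sequences of the table, let-7b to let-7i and miR-98 among them, so a site cannot be assigned to 1 family member.

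The site searched for was the reverse complement of the seed, CTACCTC for let-7, on the sense strand of the annotated 3' UTR of the transcript with the longest coding sequence of each gene. Of 14209 tested protein-coding genes with such a 3' UTR, 9.30% (1321 genes) held a let-7 site. The share was 20.6% (355 of 1723) among genes higher in IP, 40.4% (36 of 89) among the highly enriched genes, and 5.92% (117 of 1975) among genes lower in IP. Genes higher in IP had longer 3' UTRs (median 1306 bases) than genes lower in IP (1156 bases) and than all tested genes (975 bases), so the shares were also taken within 5 bins of 3' UTR length. In the longest bin (2364 bases or more) the site was held by 31.5% of genes higher in IP, 14.2% of genes lower in IP and 21.5% of all genes. In the middle bin (708 to 1311 bases) the 3 shares were 16.9%, 3.95% and 7.15%, and the order was the same in each of the 5 bins. These shares are a description over genes of the same libraries, which are not independent replicates, and no p was computed for them.

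Genes with more let-7 sites had a higher median LFC. The median LFC was -0.04 over 12888 genes with no site, 0.15 over 1161 genes with 1 site, 0.24 over 133 genes with 2 sites and 1.05 over 27 genes with 3 or more. The share of genes called higher was 10.6%, 24.9%, 36.1% and 66.7% in the same order, and the share called lower was 14.4%, 9.39%, 6.02% and 0%. Genes with more sites also had longer 3' UTRs, with medians from 884.5 bases with no site to 4466 bases with 3 or more. In DTR cochleae, the median LFC of IP over input was -0.07, 0.12, 0.28 and 0.96 in the same order.

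Sites are given for named genes higher in IP and, for contrast, for the lower genes Atp2a3 and Col3a1, which hold the same 7 letters. Each is the site nearest to the stop codon with 10 bases on either side, written 5' to 3' on the strand of the gene, with the seed match in capitals (GRCm38 positions, GENCODE M21 transcripts).
Igdcc3 (chr9:65185712-65185738, plus strand): ctctcagcacCTACCTCagccggaatg
Hic2 (chr16:17259374-17259400, plus strand): ggtgactattCTACCTCcctgggccca
Fign (chr2:63977175-63977201, minus strand): acgttcatttCTACCTCagtttcgtta
Socs1 (chr16:10783955-10783981, minus strand): aattccactcCTACCTCtccatgttta
Nrarp (chr2:25181509-25181535, plus strand): ttcccgccaaCTACCTCggtgtgcgcc
Col27a1 (chr4:63333888-63333914, plus strand): gtgctgtgtgCTACCTCccactgtgaa
Atp2a3 (chr11:72992600-72992626, plus strand): acttcctcccCTACCTCcccactgaaa
Col3a1 (chr1:45349140-45349166, plus strand): cctatgttaaCTACCTCaactggtcag
Hic2 holds 4 such sites, Fign 3, Igdcc3 2 and the others 1 each. Of the 22 genes of the let-7 list, 14 held at least 1 site and all 14 were higher in IP, with up to 8 sites in a gene. The other 3 higher members held none in the transcript searched.

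**Figure D3:**
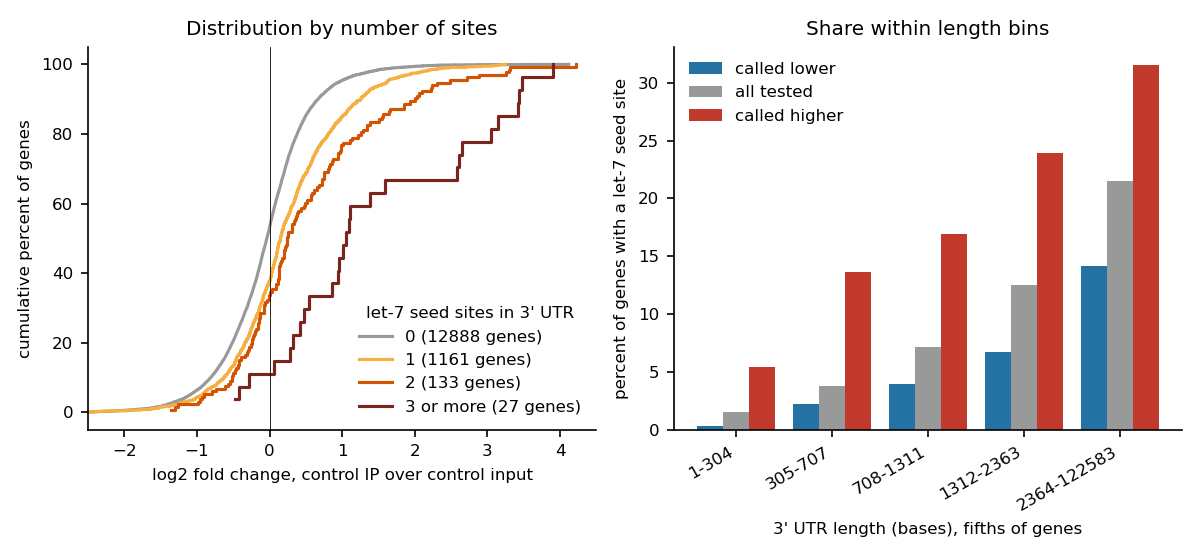
Left, cumulative percent of genes (y axis) against LFC of control IP over control input (x axis, log2) for protein-coding genes with 0 (12888 genes), 1 (1161), 2 (133) and 3 or more (27) let-7 sites in the 3' UTR. Right, percent of genes with a site (y axis) among genes called lower (blue), all tested (grey) and called higher (red) in 5 bins of 3' UTR length (x axis, bases), where the red bar is the highest in each bin.

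Sites of other microRNAs were also more frequent in genes higher in IP, by smaller ratios than the let-7 site over all 3' UTR lengths. Among the 89 highly enriched genes the miR-30a and miR-16 sites were as frequent as the let-7 site, at 40.4% each, against 14.7% and 21.8% of all genes. The share there was 31.5% for miR-200b, 23.6% for miR-29a, 16.9% for miR-9 and 10.1% for miR-183. miR-30a sites were held by 23.6% of genes higher in IP, 14.2% of genes lower in IP and 14.7% of all, and in the longest bin by 42.6%, 29.9% and 34.2%. miR-16 sites were held by 31.0%, 20.2% and 21.8%, and in the longest bin by 58.2%, 40.2% and 48.9%. For miR-9 the shares over all lengths were 15.6%, 13.7% and 12.4%, for miR-183 13.3%, 9.47% and 9.55%, for miR-200b 19.1%, 14.2% and 14.02% and for miR-29a 19.3%, 14.4% and 13.9%. For miR-9 the shares in the longest bin were 31.3%, 28.3% and 29.7%, and for miR-183 they were 26.1%, 18.7% and 23.6%. For miR-200b they were 37.2%, 29.7% and 34.6%, and for miR-29a 41.8%, 33.8% and 34.7%. Within bins of 3' UTR length the order was not kept for each microRNA. miR-9 sites were less frequent in genes higher in IP than in genes lower in IP or in all genes in the second bin (4.30%, 8.40% and 4.96%) and in the middle bin (8.05%, 9.21% and 9.44%). In the middle bin this was also so for miR-29a (9.09%, 11.3% and 10.2%), and miR-183 sites were less frequent there in genes higher than in genes lower in IP (7.79% and 8.16%). Tnrc6a held no let-7 site and 4 miR-30a sites in its 3' UTR, and Tnrc6b held no let-7 site, 3 miR-30a sites and 4 miR-16 sites. A match of 7 letters is a description of the sequence and not evidence of binding.

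Components of the silencing machinery were themselves unevenly distributed. Of 30 tested genes of microRNA silencing and mRNA decay, 13 were higher and 4 lower in IP (11.9% and 12.5% of all tested genes). Their median LFC was 0.26, and the share of lower members is near that of all tested genes. The 4 lower members include Xpo5, the exporter of microRNA precursors from the nucleus, at 45.8, 34.4, 47.2 and 42 CPM in input and 14.8, 18, 12.4 and 16.3 CPM in IP (LFC -1.43 ± 0.14 (SE), adjusted p = 1.21e-06), and Cnot1, the scaffold of the CCR4-NOT deadenylase, with an LFC of -1.22. The LFC of the list members ranged from -1.43 to 4.12.

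Slc1a3, the gene whose promoter drives the Cre, was not higher in IP. Its level was 274, 274, 275 and 303 CPM in input and 244, 219, 218 and 264 CPM in IP, lower in IP in 4 of 4 pools by little (LFC -0.20 ± 0.083 (SE), adjusted p = 0.0633), and it passed the adjusted p without quantile normalization (0.0176), with median centring (0.0270) and with DESeq2 (0.0347). Rpl22, the gene of the tagged ribosomal protein, was at 43.8, 56.1, 52.6 and 44.2 CPM in input and 46.9, 41.6, 48.2 and 40.4 CPM in IP, and the groups overlapped (adjusted p = 0.303). Lgr5, a Wnt target, marks part of the supporting cells, with inner phalangeal and lateral GER cells among them. It was lower in IP at 39.3, 40.0, 35.5 and 31.4 CPM against 63.6, 59, 66.1 and 64.4 CPM in input (LFC -0.80 ± 0.13 (SE), adjusted p = 0.000161). Sox2, a transcription factor of cochlear supporting and prosensory cells, was at 69.6, 63.8, 72.6 and 73.6 CPM in input and 88.7, 83.1, 96.1 and 91.7 CPM in IP. The groups did not overlap for Sox2 and the adjusted p was 0.0176, but the LFC of 0.37 lies below the 1.5-fold needed for a call, and the adjusted p rose above 0.05 without pool 1 (0.0534) and without pool 3 (0.0568).

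Markers of the cells that GLAST-Cre labels did not move as a block. Of the 4 inner phalangeal cell markers, Fabp7, a fatty acid binding protein, was higher at 359, 307, 421 and 386 CPM in IP and 250.4, 243, 261 and 239 CPM in input (LFC 0.62, adjusted p = 0.00129), a fold that fell below 1.5 without pool 3 (LFC 0.58) and without quantile normalization (LFC 0.56), while 1 was lower and the other 2 (Slc1a3 among them) were not called. The median LFC of the 4 was -0.34. Of 11 GER markers, 2 were higher (Otog and Gjb6) and 2 lower (Ednrb and Tecta), against 11.9% and 12.5% of all tested genes. These are few genes, and their median LFC of 0.27 ranged from -0.03 to 0.45 over the pools. Otog, a protein of the acellular membranes of the inner ear, was at 211, 267, 359.5 and 228 CPM in input and 448, 496, 594 and 576 CPM in IP (LFC 1.09 ± 0.094 (SE), adjusted p = 2.68e-07). Gjb6, a gap junction subunit, had an LFC of 0.88, and Crabp1, a retinoic acid binding protein, was 89 ± 37.1 CPM in IP and 41.7 ± 16.8 CPM in input (SD, n = 4), higher in IP in 4 of 4 pools with overlapping groups (LFC 1.04). Ednrb, an endothelin receptor, was at 912, 637, 509 and 487 CPM in input and 179, 206, 153 and 118 CPM in IP (LFC -1.85). Tecta, the alpha-tectorin of the tectorial membrane, lay between 2908 and 3005 CPM in the IP libraries and at 3139, 3357, 5943 and 3290.4 CPM in input. Its call (LFC -0.65) was not kept without pool 3, whose input library was the highest: the LFC was then -0.54, and under edgeR, DESeq2 and both scalings without quantile normalization the adjusted p was above 0.05.

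The 13 markers of organ of Corti supporting cells were divided between both directions, with 3 higher and 4 lower (11.9% and 12.5% of all tested genes). Their median LFC was 0.22. Not all are confined to cells outside the GLAST-Cre domain. The paper also finds Lgr5 and Sox2 in inner phalangeal and GER cells, and it counts Lfng among markers of supporting cells and the GER. Lfng, the Fringe enzyme that modifies Notch receptors, was at 60.1, 72.7, 80.5 and 84.5 CPM in input and 273, 305, 292 and 243 CPM in IP (LFC 1.92 ± 0.12 (SE), adjusted p = 1.43e-08). Hey2, a Notch effector, had an LFC of 0.83. Npy, a neuropeptide, and Ngfr, a neurotrophin receptor, were lower, with Npy at 119, 112, 178 and 128 CPM in input and 27.8, 28.7, 38.4 and 23 CPM in IP (LFC -2.14) and Ngfr at an LFC of -1.07. Prox1 and Fgfr3, which mark pillar and Deiters' cells, had LFC of -0.85 and -0.58 (adjusted p = 0.0106 and 0.00109). Neither was called, since the groups overlapped for Prox1 and the fold of Fgfr3 stayed just under 1.5.

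Markers of most cell types outside the GLAST-Cre domain were lower in IP. In bulk RNA, fewer cells of a type that carry tagged ribosomes and less ribosome-bound RNA per cell cannot be told apart. Of 30 tested hair cell genes, 22 were lower and 1 was higher, with a median LFC of -1.19 that ranged from -1.28 to -0.92 over the pools, and their summed level was 1156 to 1427 CPM in input and 590 to 641 CPM in IP. Otof, a calcium sensor of synaptic vesicle release in inner hair cells, was at 124, 110.4, 204 and 134 CPM in input and 21.1, 27.5, 19.8 and 17 CPM in IP (LFC -2.67 ± 0.16 (SE), adjusted p = 6.70e-09). Slc26a5, the motor protein prestin of outer hair cells, was at 22.4, 22.6, 20.6 and 25.9 CPM in input and 3.29, 5.21, 3.35 and 2.52 CPM in IP (LFC -2.46), and the hair cell genes Myo7a and Pou4f3 had LFC of -1.25 and -1.01. The 1 hair cell gene that was higher was Atoh1, the transcription factor that specifies hair cells, at 5.62, 5.63, 8.87 and 6.96 CPM in input and 9.6, 11.6, 19 and 10.2 CPM in IP (LFC 0.86 ± 0.17 (SE), adjusted p = 0.000711). For Atoh1 the groups did not overlap, and it was higher in IP in 4 of 4 pools.

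Of 17 genes of Schwann cells and satellite glia, 12 were lower and 1 was higher, with a median LFC of -1.39. Prx, a myelin protein of Schwann cells, had the lowest LFC of these at -3.15 ± 0.11 (SE, adjusted p = 9.77e-11), with 345, 276, 239.6 and 231 CPM in input and 41.1, 42.6, 21.4 and 18.4 CPM in IP. Cdh19, an adhesion protein of Schwann cell precursors, had an LFC of -2.36, and the myelin gene Mbp had an LFC of -1.84. S100b, a calcium-binding protein also found in supporting cells, was higher at 614, 489.9, 632 and 675 CPM in IP and 390.3, 379.6, 399.7 and 460.5 CPM in input (LFC 0.64), but below 1.5-fold on CPM without quantile normalization (LFC 0.56). Sox10, a transcription factor of glia and of the whole otic epithelium, was at 214, 205, 222 and 243 CPM in input and 217, 204, 177 and 280.3 CPM in IP, with overlapping groups (adjusted p = 0.937).

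Of 18 neuronal genes, 3 were lower and 1 was higher (12.5% and 11.9% of all tested genes), with a median LFC of -0.24. Their levels depended on the pool: Snap25, a protein of vesicle fusion, was at 154, 132, 28 and 30.4 CPM in input and 22.5, 21, 4.41 and 3.14 CPM in IP, high in pools 1 and 2 in both kinds of library (LFC -2.68 ± 0.12 (SE), adjusted p = 5.05e-10). The neurofilament genes Nefm (LFC -2.05) and Nefl (LFC -0.97) and the tubulin Tubb3 (LFC -1.11) were lower in IP in 4 of 4 pools and had the same division between pools, and they were not called because the highest IP library, from pool 1 or 2, exceeded the lowest input library, from pool 4. Without the pool as a block, the adjusted p of Nefl was 0.336, that of Tubb3 0.139 and that of Prox1 0.203. Prph, an intermediate filament of type II spiral ganglion neurons, was lower at a low level (LFC -0.98). Isl1, a transcription factor of sensory neurons that prosensory and GER cells also express, was the higher gene, at 221, 289, 315 and 270.2 CPM in input and 816, 1106, 1227 and 843 CPM in IP (LFC 1.91 ± 0.10 (SE), adjusted p = 2.32e-09).

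Markers of blood and vessel cells were lower. Of 17 macrophage genes, 16 were lower and none higher (median LFC -1.62), and their summed level was 215 to 234 CPM in input and 42.0 to 63.7 CPM in IP. Csf1r, the receptor for the growth factor of macrophages, was at 36.1, 35, 35.3 and 39.9 CPM in input and 6.22, 7.45, 2.32 and 3.04 CPM in IP (LFC -2.87 ± 0.19 (SE), adjusted p = 2.08e-08), and Lyz2, C1qa and Cx3cr1 had LFC of -2.38, -1.85 and -1.17. All 5 tested erythroid genes were lower (median LFC -1.91), with Hbb-bs, an adult beta globin, at 214, 343, 188 and 233 CPM in input and 46.7, 66.6, 33.9 and 32.1 CPM in IP. Its neighbour Hbb-bt had an LFC of -2.66 and the alpha globin Hba-a1 of -1.91. These globin genes have near-identical copies between which reads can be divided. Of 16 endothelial genes, 11 were lower and none higher (median LFC -1.36), with Plvap at -2.41, Esam at -1.92, Pecam1 at -1.87, Kdr at -1.39 and Cdh5 at -1.27. Of 10 pericyte and smooth muscle genes, 6 were lower and none higher (median LFC -0.88), with Rgs5, a regulator of G protein signalling in pericytes, at 163, 152, 116 and 153 CPM in input and 33, 47.3, 31.9 and 18.4 CPM in IP (LFC -2.19). Abcc9, Pdgfrb and Cspg4 had LFC of -1.81, -1.12 and -0.61, and only Cspg4 of these 3 was not called.

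Mesenchymal genes moved less. Of 20 genes of otic mesenchyme and fibrocytes, 5 were lower and none higher, with a median LFC of -0.18 (-0.17 to 0.03 within single pools). Postn, a matrix protein of connective tissue, was at 104, 99.1, 100.4 and 91.9 CPM in input and 20.7, 23.5, 16.1 and 17.5 CPM in IP (LFC -2.30 ± 0.10 (SE), adjusted p = 4.05e-10), Col3a1 had an LFC of -1.49 and Col1a1 of -0.71. The otic mesenchyme factor Pou3f4 was at 136, 120.3, 109 and 105 CPM in input and 131, 122, 129 and 111 CPM in IP, with overlapping groups (adjusted p = 0.416), and Tbx18 had an LFC of -0.34 (adjusted p = 0.00727). Of 11 genes of cartilage and bone, 5 were lower and 1 was higher (median LFC -0.60), from Hapln1 at -1.17 and Acan at -1.08 to Sp7, an osteoblast factor, at 0.64. Sp7 fell below 1.5-fold without pool 1 (LFC 0.56). Col2a1, also a major collagen of the tectorial membrane, had an LFC of -0.65 with quantile normalization and of -0.40 without it (adjusted p = 0.0935), and Col9a1 had an LFC of -0.10 (adjusted p = 0.64). Of 11 genes of the stria vascularis, 2 were lower and none higher (12.5% and 11.9% of all tested genes), with a median LFC of -0.55. These were the potassium channel genes Kcnj10 (LFC -0.73), which glia and supporting cells also express, and Kcnq1 (LFC -0.74), while the channel subunit Kcne1 was not called (LFC -1.25). None of the defining markers of hair cells, glia, macrophages, vessels or blood named here was at 0 in IP, and the part of RNA from such cells in the IP values of other genes was not tested.

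**Figure D4:**
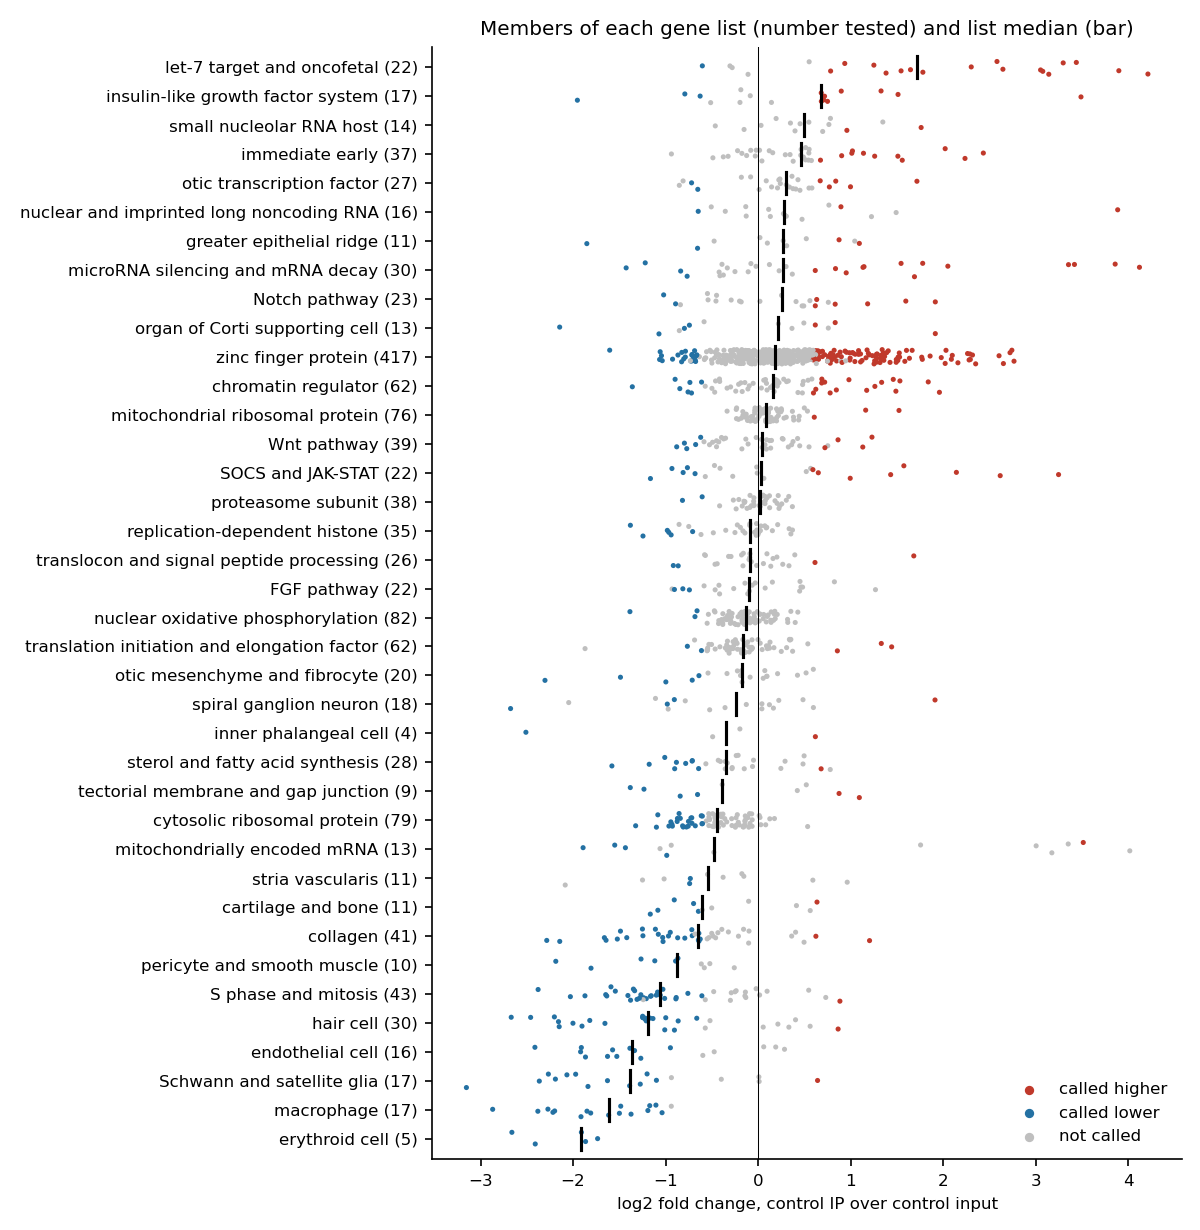
LFC of control IP over control input (x axis, log2) of the tested members of 38 gene lists (rows, with the number tested), ordered by the list median (black bar). Each point is 1 gene, red where called higher, blue where called lower and grey otherwise. The let-7 list lies at the top (median 1.71), and the erythroid, macrophage and Schwann cell lists lie at the bottom (medians -1.91, -1.62 and -1.39).

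Mitochondrial rRNAs were lower in IP. mt-Rnr2, the 16S rRNA, was at 1314, 1916, 984 and 1331 CPM in input and 221, 207, 73.7 and 47.6 CPM in IP (LFC -3.57 ± 0.22 (SE), adjusted p = 7.87e-09). mt-Rnr1, the 12S rRNA, was at 129, 265, 144 and 138 CPM in input and 37, 33.5, 14.3 and 8.6 CPM in IP (LFC -2.94). IP replicates 3 and 4 were the lowest for both. Of the 13 mitochondrially encoded mRNAs, which mitochondrial and not cytosolic ribosomes translate, 4 were lower and 1 was higher, with a median LFC of -0.48 that ranged from -1.64 to 0.28 over the pools. mt-Co1 was at 1172, 1590.3, 1558 and 1116 CPM in input and 470.2, 385, 259 and 342 CPM in IP (LFC -1.89 ± 0.31 (SE), adjusted p = 0.000139), and mt-Nd2 had an LFC of -1.55. mt-Nd4l was higher (LFC 3.51), at 0.0238, 0.0563, 4.3 and 0.0776 CPM in input and 16.3, 5.56, 11 and 10.7 CPM in IP, and 3 of the 4 input values are at or below the level of 3 reads. The LFC was positive for 6 of the 13 mRNAs. The highest, 4.02, belonged to another mRNA that was not called.

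The 4 lowest LFC of all expressed genes belonged to the pseudogenes Gm28437, Gm29216, Gm28661 and Gm10925, which lie side by side on chromosome 1 between 24613189 and 24616197 and are copies of mitochondrial sequence. Their LFC were -5.45, -5.04, -4.89 and -4.77, but the input libraries disagreed: Gm28437 was at 1125, 10.8, 6.14 and 329 CPM in input and 2.93, 1.51, 0.294 and 0.556 CPM in IP. At least 99.5% of the 25-base words of mt-Co2, mt-Atp6 and mt-Co3 also occur in these 4 copies, so reads of both places cannot be told apart and the values of these 7 genes are uncertain. The copies also hold 29.9% of the words of mt-Co1 and 10.6% of those of mt-Atp8, so the value of mt-Co1 given above is uncertain in part. With the mitochondrially encoded genes, but not the copies, left out before normalization, 2026 genes were higher, 2117 lower, 91 highly enriched and 43 strongly lower.

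Besides these pseudogenes and the rRNAs, the 10 genes with the smallest LFC above the median level hold Prx, Atp2a3, Umodl1 and Fcrlb. Atp2a3, a calcium pump of the endoplasmic reticulum, was at 65.3, 60.6, 79.6 and 80.0 CPM in input and 9.93, 8.21, 7.79 and 4.41 CPM in IP (LFC -3.11 ± 0.16 (SE), adjusted p = 2.04e-09). Umodl1, a secreted protein with a zona pellucida domain, was at 35.9, 37.2, 57.7 and 47 CPM in input and 5.14, 6.75, 4.00 and 5.46 CPM in IP (LFC -2.86 ± 0.24 (SE), adjusted p = 1.90e-07). Fcrlb, an Fc receptor-like protein, was at 247, 242, 389.7 and 296 CPM in input and 36.6, 40.9, 44.3 and 36.3 CPM in IP (LFC -2.81 ± 0.12 (SE), adjusted p = 2.44e-10). In all 3 the IP libraries lay several-fold under the lowest input library.

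Growth factor and cytokine signalling genes were called in both directions, while of all tested genes 11.9% were called higher and 12.5% lower. Of 17 genes of the insulin-like growth factor system, 9 were higher and 3 lower, with a median LFC of 0.68 (0.53 without pool 4). Within single pools the median was 0.26 to 0.59, below that of the fitted values. Besides Igf2, Stc1, a stanniocalcin that inhibits the protease releasing IGF from its binding proteins, was at 57.4, 56.5, 68.6 and 70.1 CPM in input and 173, 181, 227 and 143 CPM in IP (LFC 1.51 ± 0.10 (SE), adjusted p = 2.38e-08), whereas the binding proteins Igfbp7 (LFC -1.95) and Igfbp5 (LFC -0.79) were lower. Of 22 genes of the SOCS and JAK-STAT group, 8 were higher and 5 lower, with a median LFC of 0.03. The LFC was positive for 11 of them and negative for 11. Socs1, a feedback inhibitor of cytokine receptors, was at 12, 13, 14.8 and 14.9 CPM in input and 132, 123, 138 and 141 CPM in IP (LFC 3.25 ± 0.13 (SE), adjusted p = 2.18e-10), with the IP libraries close together. The kinase Pim1 had an LFC of 2.62, and the lower members with the largest difference were the cytokine receptor subunit Il6st (LFC -1.16) and the kinase Jak2 (LFC -0.93). Of 37 immediate early genes, which are induced within minutes by many stimuli, 11 were higher and none lower, with a median LFC of 0.46. Dusp1, a MAP kinase phosphatase, was at 22.1, 20.1, 15.4 and 16.5 CPM in input and 122, 109, 102 and 78.7 CPM in IP (LFC 2.43 ± 0.10 (SE), adjusted p = 1.41e-10), and Btg2, an antiproliferative factor that promotes deadenylation, had an LFC of 2.24.

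Regulators of transcription were more often higher than lower, against 11.9% higher and 12.5% lower of all tested genes. Of 417 tested zinc finger genes (Zfp, Zbtb, Zkscan and Zscan), 97 were higher and 22 lower, and 10 were highly enriched. Their median LFC was 0.18, and it ranged from 0.00 to 0.26 over the pools. Zfp960 and Zfp120 had the largest LFC at 2.77 and 2.74, and Zfp445 and Zfp142 the lowest at -1.60 and -1.06. Many of these genes are close paralogs, so reads can be divided between them. Of 62 chromatin regulators, 16 were higher and 7 lower (median LFC 0.17). Kdm6b, a demethylase of histone H3, was at 13.3, 17.8, 14.8 and 14.6 CPM in input and 59.2, 67.3, 60.3 and 54.1 CPM in IP (LFC 1.96 ± 0.13 (SE), adjusted p = 1.87e-08), Chd7, a remodeller mutated in CHARGE syndrome, had an LFC of 1.84, and Med12 (LFC -1.36) and Kdm5c (LFC -0.90) were lower. Of 27 otic transcription factors, 5 were higher and 2 lower (median LFC 0.30), among them Dlx5, at 9.46, 9.23, 10.6 and 13.3 CPM in input and 34.8, 28.1, 40.2 and 41.2 CPM in IP (LFC 1.72 ± 0.13 (SE), adjusted p = 5.19e-08), and Tbx2, a factor of inner hair cells and medial supporting cells (LFC 1.00). Eya4 was lower (LFC -0.72), as was Dlx2 at a low level (LFC -0.65, -0.52 without pool 4).

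Developmental signalling pathways were mixed, and of all tested genes 11.9% were called higher and 12.5% lower. Of 23 Notch pathway genes, 6 were higher and 2 lower, with the Notch target Nrarp (LFC 1.60) and Lfng at the top and the receptors Notch1 (LFC -1.02) and Notch3 (LFC -0.89) at the bottom. The median LFC of the list was 0.25. Of 39 Wnt pathway genes, 4 were higher and 5 lower, with a median LFC of 0.04 (-0.06 to 0.01 within single pools). The Wnt shares, like the share of lower genes in the FGF list below, are near those of all tested genes. The receptor Fzd5 had an LFC of 1.23 and Znrf3, which removes Wnt receptors from the surface, of 1.13, against -0.88 for the receptor Fzd7. Of 22 FGF pathway genes, 3 were lower and none higher (median LFC -0.10), among them Fgf8, made by inner hair cells, at 5.31, 5.52, 7.01 and 6.49 CPM in input and 2.51, 2.97, 2.82 and 2.52 CPM in IP (LFC -0.90), and the FGF target Etv5 (LFC -0.81). Of 9 genes of tectorial membrane and gap junctions, 2 were higher and 4 lower (median LFC -0.39), including Otoa, which anchors the tectorial membrane, at 758, 737, 1219 and 989 CPM in input and 303, 351, 281 and 359 CPM in IP (LFC -1.38), and Gjb1, a connexin of Schwann cells (LFC -1.23).

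Most genes of S phase and mitosis were lower in IP, while of all tested genes 12.5% were called lower and 11.9% higher. Of 43 genes of S phase and mitosis, 27 were lower and 1 was higher, with a median LFC of -1.06 that ranged from -1.13 to -0.88 over the pools. Kif11, the motor that separates spindle poles, was at 13.1, 9.88, 7.91 and 8.95 CPM in input and 1.88, 1.78, 1.26 and 0.719 CPM in IP (LFC -2.38 ± 0.15 (SE), adjusted p = 1.31e-08), and Bub1b, a spindle checkpoint kinase, had an LFC of -2.03. The higher gene was Ccne1, the cyclin of the entry into S phase, at 7.08, 6.11, 7.04 and 4.68 CPM in input and 14.1, 11.7, 12.6 and 7.88 CPM in IP (LFC 0.88). The replication-dependent histone genes, whose mRNAs lack a poly(A) tail, had a median LFC near 0 (-0.09). Of these 35 genes, 6 were lower and none higher, with Hist1h1c at -1.24 and Hist1h2ag at -1.38. Their summed level was only 115 to 163 CPM in input and 87.6 to 128 CPM in IP.

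Collagens followed, with 23 of 41 lower and 2 higher (median LFC -0.65). Col5a3 was at 30.5, 32.7, 20.8 and 19.4 CPM in input and 4.16, 7.1, 4.38 and 3.14 CPM in IP (LFC -2.28), and Col15a1, a basement membrane collagen, had an LFC of -2.14. The 2 higher collagens were Col27a1, at 69.9, 150.2, 88.5 and 109 CPM in input and 264, 314, 179 and 184 CPM in IP (LFC 1.20), and Col13a1 (LFC 0.62). Col13a1 fell below 1.5-fold without pool 4 (LFC 0.50), and its adjusted p was 0.0510 without the pool as a block. Of 28 genes of sterol and fatty acid synthesis, 9 were lower and 1 was higher (median LFC -0.34), with Hsd17b7, an enzyme of cholesterol synthesis, at 107, 97.1, 109 and 122 CPM in input and 32.5, 39.7, 40.3 and 31.2 CPM in IP (LFC -1.58 ± 0.11 (SE), adjusted p = 4.05e-08), the desaturase Scd1 at an LFC of -1.18 and Mvd, an enzyme of the mevalonate pathway, at 0.68 (0.56 without pool 4).

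Genes of the translation machinery leaned to input, and of all tested genes 11.9% were called higher and 12.5% lower. Of 79 cytosolic ribosomal protein genes, 24 were lower and none higher, with a median LFC of -0.44 that ranged from -0.72 to -0.16 over the pools. Rpl32 was at 211, 245, 234 and 198 CPM in input and 87.5, 80.9, 89.4 and 82.1 CPM in IP (LFC -1.32 ± 0.14 (SE), adjusted p = 1.83e-06), and Rps12 had an LFC of -1.10. These genes have many processed pseudogenes that share reads with them. Of 62 initiation and elongation factors, 3 were higher and 2 lower (median LFC -0.16), with Eif5b at 1.44 and Eif4ebp2 at 1.33, against Eif4g1 at -0.76 and Eif3e at -0.61. Eif3e fell below 1.5-fold without pool 2 and without pool 4 (LFC -0.56 and -0.55). Of 26 genes of the translocon and signal peptide processing, 2 were higher and 2 lower (median LFC -0.09). The higher ones were the signal recognition particle genes Srp19 (LFC 1.68) and Srp9 (LFC 0.62, below 1.5-fold without pool 3 at 0.52 and without pool 4 at 0.54), and the lower ones the oligosaccharyltransferase subunits Stt3b (LFC -0.92) and Stt3a (LFC -0.86).

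Other housekeeping complexes hardly moved. Of 76 mitochondrial ribosomal protein genes, 3 were higher and none lower (median LFC 0.08), led by Mrpl44 (LFC 1.52) and Mrps2 (LFC 1.16). Of 82 nuclear genes of oxidative phosphorylation, 3 were lower and none higher (median LFC -0.13), with Ndufa4l2 at -1.39 and Ndufs1 at -0.68. Of 38 proteasome subunits, 2 were lower and none higher (median LFC 0.02), the immunoproteasome subunit Psmb8 (LFC -0.82) and Psmd2 (LFC -0.60, -0.50 without pool 3). The 3 lists together hold 8 called genes, fewer in each list than the 11.9% and 12.5% called of all tested genes.

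Of 16 nuclear and imprinted long noncoding RNAs, 2 were higher and 1 was lower (11.9% and 12.5% of all tested genes), with a median LFC of 0.28. Besides H19, Mirg, a host transcript of imprinted microRNAs, was higher at a low level (0.286, 0.901, 0.484 and 0.543 CPM in input and 1.64, 1.6, 1.23 and 1.11 CPM in IP, LFC 0.90), and Tug1 was lower (LFC -0.65, -0.49 without pool 4). Of 14 host transcripts of small nucleolar RNAs, which are spliced and exported but encode no known protein, 2 were higher and none lower (median LFC 0.50). Snhg20 was at 5.08, 16.8, 7.45 and 11 CPM in input and 44.2, 56.7, 20.9 and 20.6 CPM in IP (LFC 1.76), and Snhg1 had an LFC of 0.96. The list median ranged from 0.06 to 1.00 over the 4 pools.

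Genes with a long coding sequence were more often lower in IP. Over 5 bins of coding length in tested protein-coding genes, the median LFC was 0.05 in the shortest (up to 762 bases), 0.11, 0.03 and -0.12 in the next 3, and -0.35 in the longest (2568 bases or more). In the longest bin 30.2% of genes were lower and 8.88% higher, against 7.31% lower and 11.3% higher in the shortest. 3' UTR length had no such slope in the median LFC, which lay between -0.09 and 0.01 in its 5 bins, but both its tails grew: 7.17% of genes were higher and 11.8% lower in the shortest bin, and 16.9% and 15.4% in the longest. The median LFC was -0.06 in the bin of lowest GC content and 0.08 in that of highest. Median coding length was 1389 bases in the highly enriched genes, 1881 bases in the strongly lower genes and 1418 bases in all. With length and GC content fitted out of each library, 2052 genes were higher and 1967 lower, 96 highly enriched and 41 strongly lower, and these hold 87 of the 91 and 38 of the 45 genes.

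The same comparison in DTR cochleae, in which Lgr5+ cells had been ablated, used other animals, whose libraries were normalized and fitted together with the control libraries. Of all tested genes, 11.6% were called higher and 10.3% lower in DTR IP, 0.506% highly enriched and 0.135% strongly lower. Of the 2026 genes higher in control IP, 1484 (73.2%) were also called higher in DTR IP, which is 75.4% of the 1968 genes called there, and none was called lower. Of the 2120 lower genes, 1337 (63.1%) were called lower in DTR IP, 76.2% of 1755, and 1 was called higher. All 91 highly enriched genes had a positive LFC in DTR cochleae, from 1.38 to 4.21, and 75 of them (82.4%) met the same criteria there, 87.2% of 86. For the 45 strongly lower genes the number was 18 (40.0%, and 78.3% of 23), with LFC from -7.48 to -0.83. Igdcc3 had an LFC of 4.21 in both.

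The difference between the 2 treatments in IP over input passed an adjusted p under 0.05 for 40 genes (0.235%), 15 with a higher and 25 with a lower LFC in DTR cochleae. Dusp8, a MAP kinase phosphatase, was at 25.8, 26.1, 11.5 and 11.8 CPM in control input and 101, 91.2, 45.9 and 41.6 CPM in control IP, and at 271, 249.7, 161 and 220.4 CPM in DTR input and 364, 359, 251 and 259 CPM in DTR IP. Its LFC was 1.86 in control and 0.54 in DTR cochleae, a difference of -1.32 (adjusted p = 0.000526), and its level in each DTR library lay above that in each control library. Trh, the precursor of thyrotropin-releasing hormone, was at 13.3, 11.8, 17.9 and 13.4 CPM in control input and 53.3, 43.3, 71.1 and 54.1 CPM in control IP, and at most 0.214 CPM in any DTR library, close to the level of 3 reads. Its difference (-1.86, adjusted p = 0.00118) therefore sets a 3.8-fold change against levels at which no fold can be given. Tmprss3, a serine protease mutated in deafness, had an LFC of -0.27 in control and -1.20 in DTR cochleae (adjusted p of the difference = 0.00982). The nuclear receptor Rorb went from 0.38 to -0.80 (adjusted p = 0.0228) and Gm34653, at a low level, from 0.34 to -1.39 (adjusted p = 0.00982). None of the 91 highly enriched genes was among the 40, and 4 of the 45 strongly lower genes were. The count was 2 without the pool as a block, and between 6 and 32 with 1 control or DTR pool left out, the lowest without control pool 1.

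**Figure D5:**
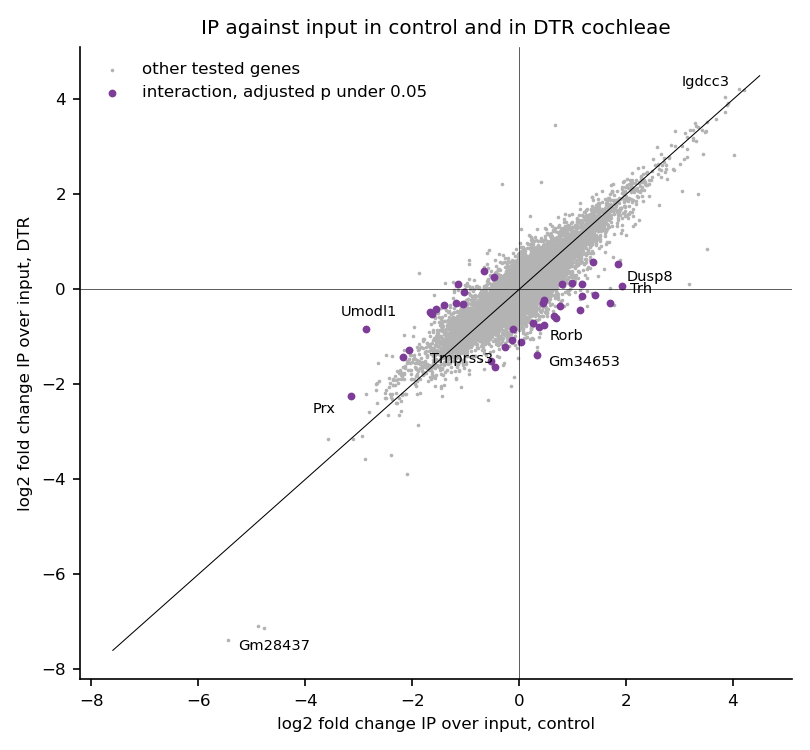
LFC of IP over input in DTR cochleae (y axis, log2) against that in control cochleae (x axis, log2) for the 16994 tested genes, with the line of equal values. Purple points are the 40 genes whose difference passed an adjusted p under 0.05. Igdcc3 lies at 4.21 on both axes, and Dusp8 and Trh lie under the line at control LFC of 1.86 and 1.92.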

How the data were processed

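The values deposited by the authors are CPM of 16 libraries. Their methods name HISAT2 on GRCm38 and HTSeq, the submitters' processing notes name TopHat, and the strand setting is not given in the sources used here. Deposited CPM were whole multiples of the value of 1 read for 100% of values above 0 (tolerance 0.05 reads), which gave the read counts for edgeR (4.0.16) and DESeq2 (1.42.0), used as alternatives with TMM and size factors. Of 50316 genes, 47729 had values. CPM were quantile normalized over 16 libraries, and genes that reached 0.5 CPM in every replicate of 1 or more groups were fitted in limma (3.58.1, under R 4.3.3) using a trended prior variance, the pool as a block and Benjamini-Hochberg adjustment, after tests on simulated data. Libraries of a pool share a homogenate, and their deviations from the group means correlated (r = 0.288 to 0.465 in control and 0.312 to 0.491 in DTR pools, over genes). Replicates are separate pools of animals, and their number limits the precision. Files of the fourth replicates carry the number 6.

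A fold change is on the scale of log2(CPM + 0.5) and understates that of low genes. 3' UTRs, lengths and positions are those of GENCODE M21, in which 16938 tested genes have an entry. Named genes were the 10 largest and 10 smallest LFC above the median level, up to 2 called members of each list in either direction, the first 3 markers of each cell type, 4 fixed genes and the 5 interaction genes with the smallest p. The members of the comparison and all 38 gene lists were chosen with earlier results of these data known. The values of 3 of the named genes are not reported here.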

Additional observations from a re-analysis of the deposited data

Results flagged for a closer look

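Single control libraries stood apart from the other 3 of their group in 19 of the 328 groups of 4 values looked at, near the 1 in 20 that chance gives. Among the genes that bear on the comparison of cell types, Slc1a3 was at 303 CPM in input replicate 4, and the others at 274 to 275 CPM. Tecta was at 5943 CPM in input replicate 3, against 3139 to 3357 CPM, and Crabp1 in the same library at 66.6 CPM. Cdh19 was at 21.04 CPM in input replicate 1, Myo7a at 7.49 CPM in IP replicate 4 and Pdgfrb at 167 CPM in input replicate 2. Pecam1 was at 6.02 CPM in IP replicate 2 and at 21.8 CPM in input replicate 4, and Esam at 29.2 CPM in the latter. IP replicate 4 was low for Znrf3 (42.8 CPM) and high for Nrarp (23.1 CPM). IP replicate 2 was high for Psmb8 (1.95 CPM) and Scd1 (36.3 CPM), and IP replicate 3 was low for Ndufa4l2 (0.882 CPM). Etv5 was at 118 CPM in input replicate 4 and Lmbr1l at 16.8 CPM in input replicate 1, both low. mt-Rnr1 was at 265 CPM in input replicate 2 and mt-Nd4l at 4.30 CPM in input replicate 3. Pseudogenes took 1.05% of the reads of input replicate 1, against 0.784% to 0.804% in the other inputs.

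The difference in LFC between DTR and control cochleae passed an adjusted p under 0.05 (limma) for 7 named genes. It was -1.32 for Dusp8, -1.86 for Trh, -1.73 for Gm34653, -0.94 for Tmprss3 and -1.17 for Rorb, which were chosen for their p. For Prx it was 0.91 (adjusted p = 0.0360) and for Umodl1 2.03 (adjusted p = 0.0268).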

How the results depend on the processing

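No called gene among those named changed direction (Sox10, not called, moved between -0.18 and 0.12). Over the alternatives, 1855 to 2339 genes were higher, 1957 to 2486 lower and 74 to 135 highly enriched in control IP, and leaving out a pool gave 2041 to 2339, 2138 to 2369 and 85 to 113. All 91 highly enriched genes were kept without quantile normalization, with median centring, and with edgeR (105 genes) and DESeq2 (103 genes) on the recovered reads, which called 2232 and 2139 genes higher and 2044 and 2132 lower. Strongly lower genes rose from 45 to 83 with no filter on low values and to 86 with no minimum on the mean, and otherwise stayed between 32 and 48. Genes whose LFC differed between DTR and control cochleae were the least stable: 40 became 1 with no filter, 2 without the pool as a replicate block, 192 with DESeq2, 73 with length and GC correction, and 6 to 32 with a pool left out, while edgeR gave 32. The causes were not tested. Apart from this count, the block moved no count by over 1.5 times, and it decided the adjusted p of Nefl, Tubb3, Prox1, Tmprss3 and Col13a1 among named genes. Over all pairs of a named gene and a setting, 25 lost and 3 gained the adjusted p. It was kept as in the main fit in 616 pairs with a pool left out and in 1844 under other settings. List medians moved by more than the spread between pools in 4 cases with a pool left out and in 24 under other settings, and those of the Wnt, SOCS, proteasome and mitochondrial ribosomal lists, all near 0, changed sign in some. The 4 pools of a group limit small differences, and genes near 0.5 CPM rest on few reads.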
